A study of Mus musculus with 8 samples.

Results

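New transcript loci are features that a transcript assembly placed outside the reference gene set, and the deposited table lists 4823 of them under NewGene identifiers beside 22050 rat Ensembl (ENSRNOG) genes. The loci described here are the 1274 of these 4823 that reached at least 1 CPM (count per 1000000 counts of the library) in 2 or more of the 8 libraries. The other 3549 new loci did not reach that level, whereas 12542 ENSRNOG genes did. The abundance of the 1274 loci was therefore set by the rule and is given as a description only. Each locus is named by its identifier and, where the table holds one, by the protein its annotation text names. The name "unannotated" covers only some of them, since 519 of the 1274 (40.7%) carry annotation text and 755 carry none.

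Messenger RNA was sequenced from BMSCs (bone marrow mesenchymal stem cells, labelled as a cell line, wild type and Mus musculus) in osteogenic differentiation. The cells received medium (DMEM with 10% fetal bovine serum) in which polycaprolactone (PCL) scaffolds had been extracted. There are 4 arms: PCL-S was read as the extract with S7 peptide, PCL-E with E7 peptide, PCL-SE with both, and PCL-O, by elimination, as the blank of the series design. Each arm has 1 library on day 3 and 1 on day 7, all arms share the differentiation medium, and the sources used here state neither peptide doses nor numbers of cultures. Tests set arms with S7 (PCL-S, PCL-SE) against those without it (PCL-O, PCL-E), so that each group of 2 holds 2 different arms and no repeat of an arm. The p-values therefore measure departures from the fitted terms, which may be technical.

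Gene sets in reference annotations are incomplete, and assemblies of RNA reads recover transcripts of further genes, unlinked pieces of known genes such as long or alternative 3′ ends, long noncoding RNAs, expressed retroelements and copies of multigene families. Long noncoding RNAs hold no long open reading frame and so tend to have no match in protein databases, while a piece of a coding gene or a retroelement usually finds one. Such loci are often left out of expression studies because they carry no symbol.

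Total counts ran from 32950326 to 41754124 per library. At that depth 3 counts, used as the floor for a locus without counts, correspond to 0.0718 to 0.0911 CPM. Printed CPM are scaled to these totals, whereas fold changes also use TMM factors, which were 1.15 (PCL-S) and 1.16 (PCL-SE) on day 7 and 0.928 to 1.02 in the other 6 libraries. The identifiers are rat although the labels give mouse, so no genome coordinates were used. All 7 mesenchymal stromal markers listed (Thy1, Nt5e, Eng, Cd44, Itgb1, Col1a1 and Pdgfrb) had counts, with summed levels of 8503 to 38284 CPM. The 6 osteogenic markers summed to 1711 and 2832 CPM in the day 7 libraries with S7 and to 669 to 1330 CPM in the other 6, most of it Spp1 (638 to 2795 CPM), while Sp7, Bglap and Ibsp reached at most 0.640, 0.152 and 0.969 CPM. The 5 leukocyte and macrophage markers together reached at most 0.880 CPM.

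The text and species tags of the 1274 loci were mostly those of rodents. A line from the NCBI non-redundant protein collection (NR) was present for 512 loci (40.2%), a Swiss-Prot line for 336 (26.4%), a Pfam domain for 278 (21.8%) and a gene symbol for 211 (16.6%). Of the ENSRNOG genes that met the same rule, 99.8% had an NR line and 97.6% a Swiss-Prot line, and of the 3549 new loci under the rule 20.3% and 9.24% had them. Rattus norvegicus was the species of 355 of the 512 NR lines (69.3%), Mus musculus of 43 and Rattus rattus of 31. In Swiss-Prot, Mus musculus was named in 257 of 336 lines and Rattus norvegicus in 67. The word "predicted" stood in 215 of the NR lines, "partial" in 50 and "low quality protein" in 38.

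By keyword, 755 loci (59.3%) had no text, 92 named an uncharacterised product, 343 (26.9%) another named protein, 50 a zinc finger protein, 22 a retroelement product and 12 a ribosomal protein. Among the ENSRNOG genes passing the rule these classes held 3, 74, 11415, 710, 34 and 306 genes. Of a list of 38 long noncoding RNA genes (H19, Meg3, Malat1, Neat1, Gas5, Snhg and host genes and others), 1, Snhg11, was among the names of the ENSRNOG genes, and it was listed at 0 counts in all 8 libraries. Whether any locus without text is one of the other 37 was not tested, because the files used here give no sequence or position for the new loci. The same limit holds for strand, overlap with a neighbouring gene and sharing of reads between near-identical copies, so values of loci that name ribosomal proteins, ubiquitin, zinc finger proteins or retroelements are uncertain.

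The loci were in the main weakly expressed. Their median of mean CPM over the 8 libraries was 2.70, with an interquartile range of 1.22 to 7.79 and a maximum of 1331, whereas the 12542 ENSRNOG genes had a median of 23.8. Per length, the median of the authors' FPKM values (fragments per kilobase and per 1000000) was 1.42 for the loci and 9.60 for the ENSRNOG genes. The median length was 2078 nucleotides for the loci and 2425 for the ENSRNOG genes. Loci with text had a higher median (3.71 CPM) than loci without (2.29 CPM). At the edge of the rule, NewGene_3164 and NewGene_5811 each had 1.00 CPM in their library of second-highest level, and NewGene_353 and NewGene_6857, just outside, had 0.998. Of the 1274 loci, 700 reached 1 CPM in all 8 libraries and 120 in exactly 2.

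**Figure D1:**
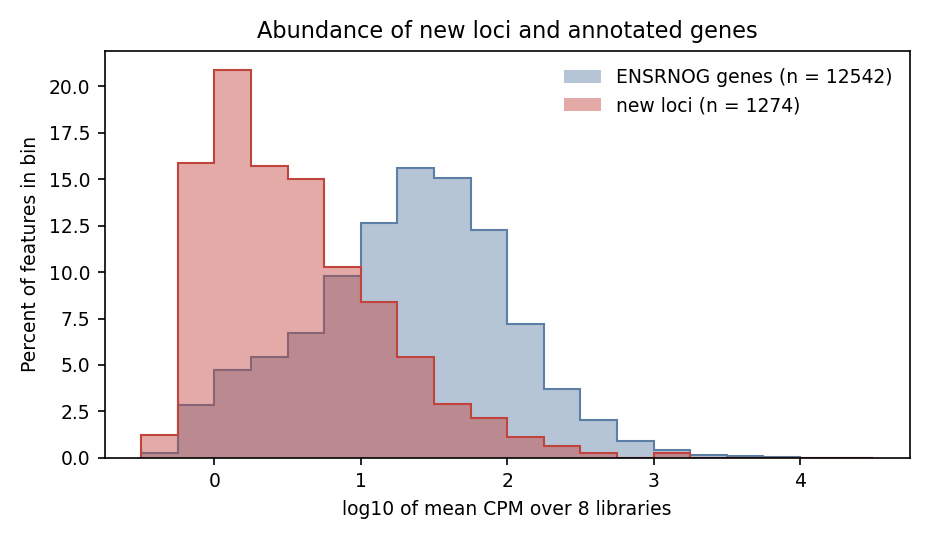
Distribution of abundance among features with at least 1 CPM in 2 or more libraries, with log10 of mean CPM over 8 libraries on the horizontal axis and the percent of features per bin on the vertical axis (red, 1274 new loci; blue, 12542 ENSRNOG genes). The new loci centre near 2.70 CPM and the ENSRNOG genes near 23.8 CPM, and a thin tail of new loci reaches 1331 CPM.

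A few loci held much of the signal. The 10 most abundant held 33.4% of the summed mean CPM of the 1274 loci, and the 3 most abundant 19.6%. All 1274 together took 1.63% to 2.04% of the counts per library, highest in PCL-S on day 7. That library and PCL-SE on day 7 also stood apart in the 2 loci whose symbol is Rn18s, the small ribosomal subunit RNA, which together had 3635 and 2296 CPM there and 355 to 955 CPM in the other 6 libraries. Without those 2 loci the share was 1.68% in PCL-S on day 7 and ran from 1.57% to 1.80% over all 8 libraries. These libraries also had the lowest sums of the stromal markers (8503 and 8985 CPM against 20202 to 38284 in the other 6). Most of each sum was Col1a1, at 5659 and 5273 CPM there against 15347 to 32384 in the other 6. Cd44 went the other way, with 505 and 503 CPM against 225 to 290. Of the 7 stromal markers, edgeR's quasi-likelihood test called 4 lower and 1, Cd44, higher with S7 on day 7. The part of the Rn18s loci or of the stromal sums in the day 7 results below was not tested.

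The most abundant locus, NewGene_3294, carries the text of perlecan (Hspg2), a heparan sulfate proteoglycan of basement membranes. On day 3 it had 1695 CPM in PCL-O, 1678 in PCL-E, 2334 for PCL-S and 2130 for PCL-SE, and on day 7 it had 1142, 743, 470 and 454. The S7 arms were thus the 2 highest libraries on day 3 and the 2 lowest on day 7. With S7 the locus fell on day 7 by 1.24 on the log2 scale (SE 0.17, adjusted p = 0.00147 in edgeR's quasi-likelihood test), and on day 3 the difference was 0.42 (SE 0.17, adjusted p = 0.158).

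NewGene_7231, the larger Rn18s locus, had 944, 485, 520 and 565 CPM in PCL-O, PCL-E, PCL-S and PCL-SE on day 3 and 347, 512, 3609 and 2274 on day 7. The 2 day 7 libraries with S7 exceeded all others, and the locus rose there with S7 by 2.51 (SE 0.34, adjusted p = 0.00142 in edgeR). Among the other abundant loci without text, NewGene_3076 followed a similar order (746, 253, 316 and 169 CPM on day 3 and 190, 285, 1635 and 801 on day 7). NewGene_4447 went the other way on day 7, with 592 CPM in PCL-O, 661 in PCL-E, 123 for PCL-S and 250 for PCL-SE. Its log2 difference with S7 on day 7 was -2.01 (SE 0.41, adjusted p = 0.00645 in edgeR). NewGene_4446, also without text, had a mean of 1064 CPM and ranged from 710 to 1475.

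Several abundant loci varied little among the libraries. NewGene_1784, whose text names a protein like Surf4, a cargo receptor of the early secretory pathway, lay between 268 and 342 CPM in all 8. NewGene_1002, whose text names Eif4g1, the scaffold of the cap-binding translation initiation complex, lay between 219 and 295 CPM. NewGene_6954 (Prrc2c) lay between 248 and 314 CPM. Loci with the text of Ubb, a polyubiquitin gene (NewGene_5959), and of filamin-B, an actin crosslinker (NewGene_7456), had means of 479 and 276 CPM. In edgeR's test, NewGene_1784 and NewGene_1002 passed in neither S7 comparison, with adjusted p of 0.191 and 0.897 on day 3 and 0.300 and 0.432 on day 7.

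On day 3 the arms with S7 differed from those without it in 147 of the 1274 loci, beside 14.0% of all features, by edgeR's quasi-likelihood test (Benjamini-Hochberg adjusted p under 0.05 over all 15942 features tested). Of these, 61 were higher (4.79%) and 86 lower (6.75%). Over all features the test called 7.10% higher and 6.87% lower, so the share lower was near the background and the share higher was below it. Of the 86 lower loci 27 had reached 1 CPM only in libraries without S7, and of the 61 higher loci 12 only in libraries with it. The median log2 fold change was -0.10 for the loci and 0.00 for all features. The count rested on single libraries: it was 25 without PCL-S day 3, 26 without PCL-O day 3, 42 without PCL-SE day 3 and 49 without PCL-E day 3, and 254 and 259 without PCL-O and PCL-E day 7. In such repeats the group left with 1 library is assumed to vary like the others.

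Among the loci that rose with S7 on day 3 was NewGene_5165, a locus of 9133 nucleotides whose NR line names the alpha-3 chain and whose Swiss-Prot line the alpha-4 chain of type VI collagen, a beaded-filament collagen around cells. It had 15.1 CPM in PCL-O and 30.3 in PCL-E on day 3 against 631 for PCL-S and 579 for PCL-SE. On day 7 the 4 arms had 158, 79.1, 46.7 and 57.0 CPM in the same order. The groups did not overlap on either day, and the order was reversed on day 7. The fitted difference with S7 was 4.75 on day 3 (SE 0.47, adjusted p = 0.00219 in edgeR) and -1.43 on day 7 (SE 0.42, adjusted p = 0.0266).

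NewGene_4522, without text, was also higher with S7 on day 3, and its groups overlapped on day 7. Its day 3 levels were 3.04 CPM in PCL-O, 5.76 in PCL-E, 80.6 for PCL-S and 75.1 for PCL-SE, and its day 7 levels were 6.71, 10.5, 6.46 and 7.84. The 2 day 3 libraries with S7 stood apart from the other 6, which lay between 3.04 and 10.5 CPM, and the difference was 4.21 (SE 0.24, adjusted p = 0.000731 in edgeR). NewGene_1599, also without text, had 0.145 and 0.173 CPM without S7 and 4.20 and 3.61 with it on day 3.

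Other rises on day 3 were smaller. NewGene_6849, whose text names Plekha6, a pleckstrin homology domain protein, had 7.68 CPM in PCL-O and 8.56 in PCL-E against 25.9 for PCL-S and 23.5 for PCL-SE, a log2 difference of 1.62 (SE 0.13, adjusted p = 0.00133 in edgeR). NewGene_6679, whose text names Mlxipl, the carbohydrate-responsive transcription factor ChREBP, was read on day 3 in both arms with S7 (4.95 and 4.17 CPM), at 0.203 CPM in PCL-O on day 3 and at 0 counts in the other 5 libraries. Its call on day 3 (adjusted p = 0.0178 in edgeR) was absent in DESeq2 (adjusted p = 0.438) and without any 1 of the day 3 libraries (adjusted p of 0.0510 to 0.0830), and its fitted difference of 5.58 was 10.36 without PCL-O day 3 and 8.56 without PCL-S day 3. NewGene_7323 (Shmt1, a cytosolic enzyme of one-carbon metabolism) and NewGene_4696 (Ccnb2, a mitotic cyclin) both had log2 differences of 1.96, with SE of 0.31 and 0.42. The NewGene_7323 call was lost without PCL-O, PCL-SE or PCL-S day 3 (adjusted p of 0.106, 0.0834 and 0.0906). That of NewGene_4696 was lost without PCL-E, PCL-SE or PCL-S day 3 and without PCL-SE or PCL-S day 7 (adjusted p of 0.122, 0.125, 0.172, 0.0536 and 0.0541).

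Among the loci that fell with S7 on day 3, NewGene_4419 carries the text of an envelope (Env) polyprotein of a murine leukemia virus-related provirus, a class of inherited retroelement. It had 12.0 CPM in PCL-O and 10.5 in PCL-E on day 3 against 1.39 for PCL-S and 0.998 for PCL-SE, and the log2 difference was -3.26 (SE 0.28, adjusted p = 0.0016 in edgeR). NewGene_5115, whose NR line names a RING finger protein and whose Swiss-Prot line Trim3, had 15.9 and 10.6 CPM without S7 and 1.39 and 1.26 with it (-3.29, SE 0.25). Both kept non-overlapping groups on day 7 as well.

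The remaining named falls of day 3 were at low levels. NewGene_2335 (Rbm33, an RNA-binding protein) had 3.16 and 2.91 CPM without S7 and 0 and 0.176 with it on day 3, and from 1.39 to 1.79 CPM in all 4 arms on day 7. Its call was lost without PCL-O day 3 (adjusted p = 0.0734), and its fitted difference moved from -5.16 to -9.95 without PCL-SE day 3. NewGene_2451 (Kcnd2, a voltage-gated potassium channel) had 4.35 CPM in PCL-O, 1.47 in PCL-E, 0.195 for PCL-S and 0.0587 for PCL-SE, and its call was lost without PCL-O or PCL-S day 3 (adjusted p of 0.0922 and 0.0672). NewGene_7451 (Synpr, a synaptic vesicle protein) passed with an adjusted p of 0.0451 and failed without any 1 of the day 3 libraries (0.182 to 0.314). Of the loci without text, NewGene_7805 had 8.08, 4.12, 0.195 and 0.0587 CPM in PCL-O, PCL-E, PCL-S and PCL-SE, and NewGene_2382 had 4.11, 4.67, 0.0488 and 0.206. The call of NewGene_7805 was lost without PCL-SE or PCL-S day 3 (adjusted p of 0.107 and 0.220) and without the E7 term (0.0567), and that of NewGene_2382 without PCL-E, PCL-O or PCL-S day 3 (0.0604, 0.0736 and 0.0865).

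**Figure D2:**
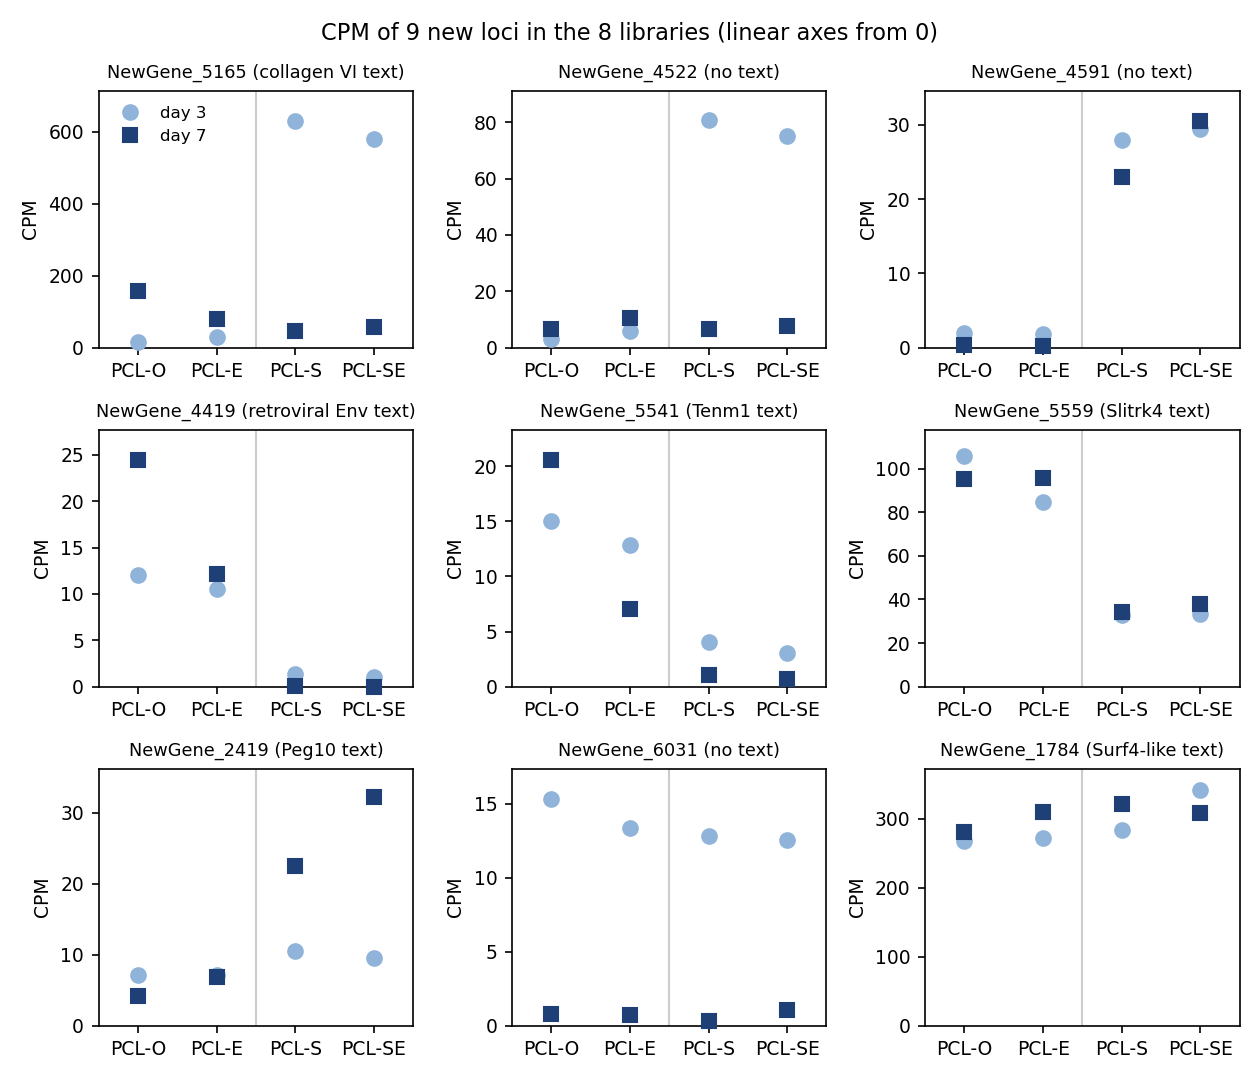
CPM of 9 new loci in the 8 libraries, with the arms on the horizontal axis (those without S7 left of the grey line, those with S7 right of it) and CPM on linear vertical axes from 0 (light circles, day 3; dark squares, day 7; each point is 1 library). NewGene_5165 and NewGene_4522 are highest with S7 on day 3, NewGene_4591 is high with S7 on both days, NewGene_5559 is low with S7 on both days, NewGene_6031 is low on day 7 in all arms and NewGene_1784 lies between 268 and 342 CPM throughout.

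On day 7 the loci were called with S7 about as often as all features (48.9% against 51.0%), and their calls were mostly lower. In edgeR's test 117 of 1274 were higher with S7 (9.18%) and 506 lower (39.7%), where the test called 24.9% of all features higher and 26.2% lower. The median log2 fold change was -0.53 for the loci and -0.03 for all features. The median of the loci was the same with the 12 loci at 0 counts with S7 and the 3 at 0 without it held at their floor. So few of 1274 loci could hardly move a median, so this is no check of it. With counts scaled to library totals alone, 182 were higher and 415 lower and the median of all features moved to 0.19, and the median of the loci relative to all features stayed at -0.49 against -0.50. Without PCL-S day 7 the number of loci called was 406 in place of 623. The rule bears on these counts: 104 loci reached 1 CPM only in libraries without S7 on either day, of which 76 were among the 506 lower, and 54 reached it only in libraries with S7, of which 14 were among the 117 higher and 2 among the 506 lower.

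The excess of lower calls on day 7 was seen in each band of abundance when set beside the ENSRNOG genes that met the same rule. Among features with a mean under 2 CPM, 37.4% of 529 loci and 23.6% of 1110 ENSRNOG genes were lower. From 2 to 5 CPM the shares were 41.6% of 305 loci and 26.8% of 1209 genes, from 5 to 10 CPM 39.5% of 172 and 22.9% of 1412, from 10 to 50 CPM 39.3% of 211 and 23.1% of 5070, and at 50 CPM and over 52.6% of 57 and 32.9% of 3741. Shares called higher were smaller among the loci in every band, from 4.35% against 13.4% under 2 CPM to 21.3% against 37.6% between 10 and 50 CPM. On day 3 the shares lay closer together, with 5.48% of loci and 6.40% of genes lower under 2 CPM and 9.95% and 6.43% between 10 and 50 CPM. The rule bears on these shares and on the medians by length below, and not alike for the 2 kinds of feature. Of the 1274 loci, 104 met it only in libraries without S7 (76 of them lower on day 7) and 54 only in libraries with S7. Of the 12542 ENSRNOG genes, 157 and 208 did. How much of the excess in each band comes with the rule was not tested. These shares are descriptions, and the difference between the 2 kinds of feature was not tested.

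**Figure D3:**
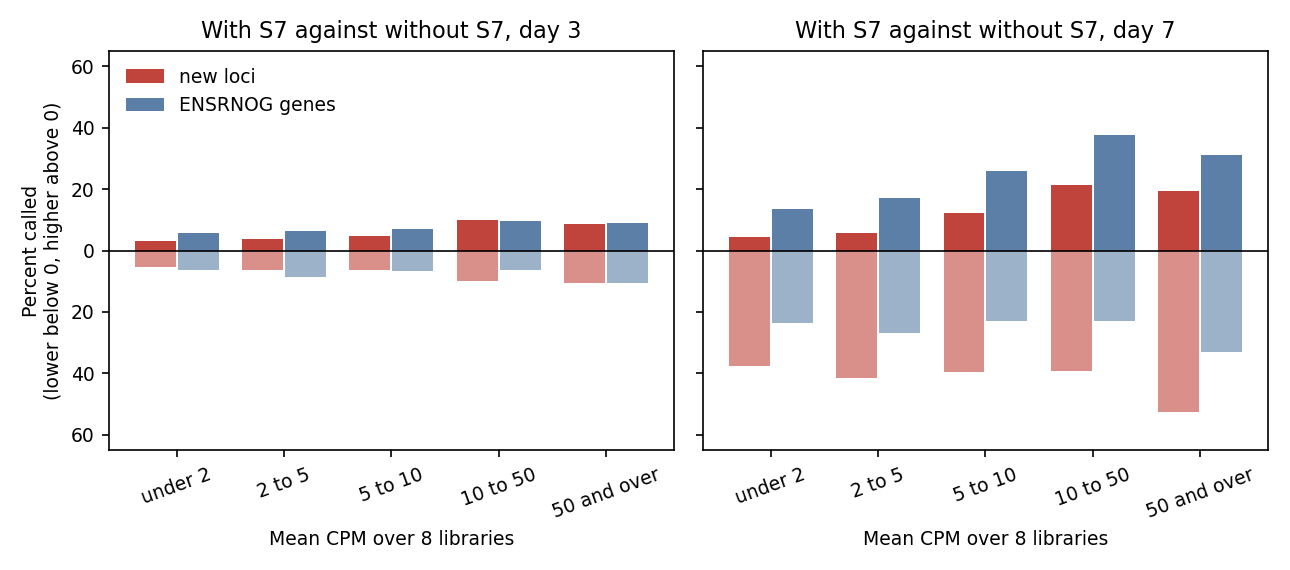
Percent of features called with S7 against without S7 on day 3 (left) and day 7 (right) by band of mean CPM over 8 libraries, with features called higher above the zero line and those called lower below it (red, new loci; blue, ENSRNOG genes; edgeR adjusted p under 0.05). On day 7 the red bars below zero run from 37.4% to 52.6% and the blue ones from 22.9% to 32.9%.

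Length moved with the same result. Longer features were lower with S7 on day 7 among loci and ENSRNOG genes alike: the median log2 fold change of the loci was 0.04 under 1 kb (222 loci), -0.45 from 1 to 2 kb (386), -0.67 from 2 to 4 kb (459) and -0.88 at 4 kb and over (207). For the ENSRNOG genes the medians were 0.46, 0.23, -0.00 and -0.26. Within each length class the loci thus had the lower median. Of 17 combinations of length and abundance band with at least 20 loci, the loci had the lower median in 16, the exception being loci under 1 kb with 10 to 50 CPM. With a smooth length trend removed from the counts, 151 loci were higher and 434 lower, and the median of all features moved to 0.16. The median of the loci relative to all features was then -0.52 against -0.50.

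**Figure D4:**
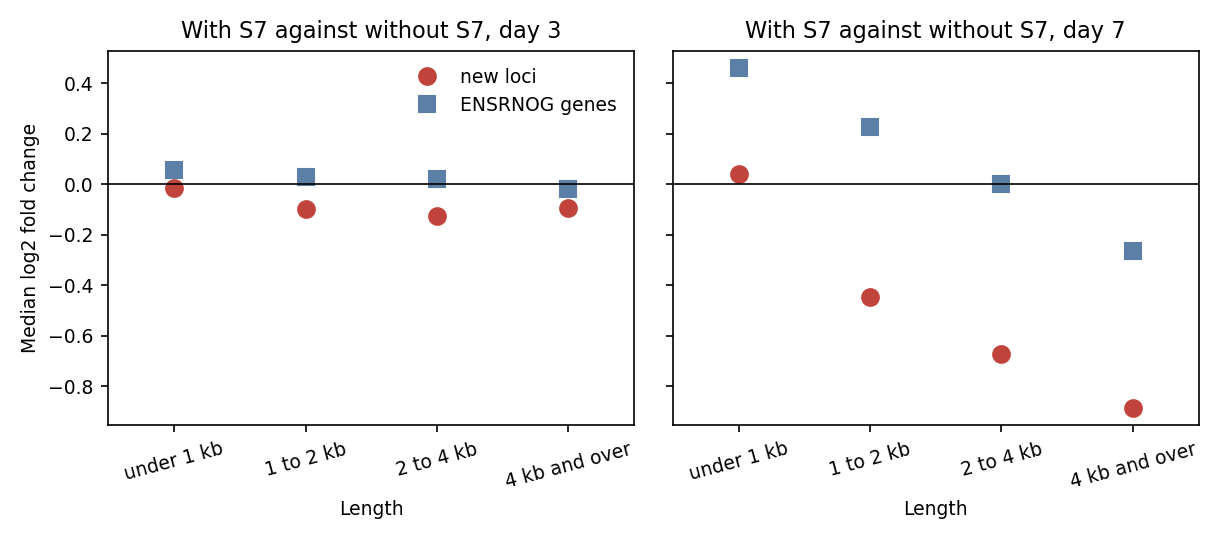
Median log2 fold change with S7 against without S7 on day 3 (left) and day 7 (right) by length class (red circles, new loci; blue squares, ENSRNOG genes). On day 7 the loci run from 0.04 under 1 kb to -0.88 at 4 kb and over, and the ENSRNOG genes from 0.46 to -0.26.

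Among loci whose text names a protein, the steepest fall of day 7 was again NewGene_4419 (Env). It had 24.5 CPM in PCL-O and 12.1 in PCL-E, and 0.0303 for PCL-S and 0 for PCL-SE. The 2 libraries with S7 held 1 count against 1313 without it, a ratio of 1238 with a 95% counting interval of 222 to 48943 (exact Clopper-Pearson, counting error only). The adjusted p was 8.8e-05 in edgeR.

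Teneurin-1 (Tenm1), a transmembrane adhesion protein, was named by 3 loci, which share the named gene and so are not replicates. NewGene_5541, the most abundant of them, had 15.01 CPM in PCL-O, 12.9 in PCL-E, 4.05 for PCL-S and 3.02 for PCL-SE on day 3, and 20.6, 7.02, 1.06 and 0.720 on day 7. In NewGene_5538 the day 7 values were 6.89, 2.56, 0.303 and 0.213 CPM and in NewGene_5539 4.61, 1.34, 0.273 and 0. All 3 were lower with S7 on day 7, by fitted log2 differences of -4.08, -4.32 and -4.67 (SE 0.39, 0.44 and 0.71). Without PCL-S day 7 that of NewGene_5539 moved to -9.03. NewGene_5541 was chosen for its text after its values were seen.

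NewGene_2202, whose text names Macrod2, an enzyme that removes ADP-ribose from proteins, had 2.94 and 3.38 CPM without S7 on day 7 against 0.121 and 0.240 with it, a log2 difference of -4.31 (SE 0.30, adjusted p = 0.00017 in edgeR). NewGene_1670, whose Swiss-Prot line names St8sia2, a polysialic acid synthase, had 15.1 and 11.0 CPM without S7 and 1.06 and 1.28 with it on day 7 (-3.70, SE 0.27, adjusted p = 0.000189). On day 3 it had 15.6 and 20.7 CPM without S7 and 26.5 and 26.0 with it, so that the order of the groups was opposite on the 2 days, and the day 3 difference did not pass (0.55, SE 0.21, adjusted p = 0.141). NewGene_5154, whose text names a protein like Gapdh, a glycolysis enzyme, had 3.64 and 1.92 CPM without S7 and 0.121 and 0.133 with it on day 7.

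Among the named loci with protein text, rises with S7 on day 7 ran from 1.67 to 2.08. NewGene_2419 carries the text of Peg10, an imprinted gene derived from a retrotransposon. It had 4.19 CPM in PCL-O, 6.90 in PCL-E, 22.4 for PCL-S and 32.1 for PCL-SE on day 7, against 7.10, 7.09, 10.5 and 9.54 on day 3. The log2 difference was 2.08 on day 7 (SE 0.22, adjusted p = 0.000533 in edgeR) and 0.52 on day 3 (SE 0.21, adjusted p = 0.159). NewGene_4610, whose text names a tumor necrosis factor receptor family member, had 10.2 and 11.3 CPM without S7 and 38.6 and 41.3 with it on day 7 (1.67, SE 0.10, adjusted p = 0.000125). It also passed on day 3, at 0.57 (SE 0.10, adjusted p = 0.0131).

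The other named rises of day 7 stood at under 4 CPM. NewGene_1694, with the text of the synaptic vesicle protein Sv2b, had 0.334 and 0.599 CPM without S7 and 2.31 and 2.24 with it. NewGene_4791 (Rpl29) and NewGene_1782 (Pnpla7, a lysophospholipase) had log2 differences of 1.80 and 1.77 with adjusted p of 0.0382 and 0.0303. The NewGene_1782 call was lost without PCL-O day 7 (adjusted p = 0.139) and without PCL-S day 7 (0.185). That of NewGene_4791 was lost without the E7 term (0.0798) and without PCL-E day 3, PCL-E day 7, PCL-O day 3, PCL-O day 7 or PCL-SE day 7 (0.0663, 0.0727, 0.0676, 0.130 and 0.279), and without PCL-SE day 7 its value was 0.95.

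Of the loci without text, NewGene_4591 separated the arms on both days. It had 1.94 CPM in PCL-O, 1.87 in PCL-E, 28.0 for PCL-S and 29.4 for PCL-SE on day 3, and 0.364, 0.287, 23.0 and 30.6 on day 7. Its log2 difference was 3.93 on day 3 (SE 0.18, adjusted p = 0.000603 in edgeR) and 6.14 on day 7 (SE 0.22, adjusted p = 7.13e-05). NewGene_7910 rose with S7 on day 7 (0.212 and 0.599 CPM without S7, 77.7 and 39.997 with it), but its day 3 libraries were unlike each other, with 25.2 CPM in PCL-O, 0.548 in PCL-E, 6.30 for PCL-S and 0.998 for PCL-SE. NewGene_7805 and NewGene_2138 had 0 counts in both S7 libraries of day 7 and were at least 54.0-fold and at least 35.6-fold lower there than the mean without S7, at a floor of 3 counts per library. For NewGene_7805 that mean joins 8.80 CPM in PCL-O and 0.431 in PCL-E, and its call was lost without PCL-S day 7 (adjusted p = 0.0722).

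The smallest adjusted p of any locus on day 7, 1.4e-05 in edgeR, belonged to NewGene_3814, a locus of 10269 nucleotides without text. On day 7 it had 251 CPM in PCL-O and 211 in PCL-E against 11.7 for PCL-S and 8.16 for PCL-SE, and on day 3 193, 145, 151 and 134 in the same order. The day 3 libraries lay between 134 and 193 CPM and the day 7 libraries with S7 were far below all others. The log2 difference was -4.77 on day 7 (SE 0.12) and -0.21 on day 3 (SE 0.10, adjusted p = 0.206).

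Direction on day 7 differed between the text classes. Of the 755 loci without text 65 were higher (8.61%) and 328 lower (43.4%), with a median log2 fold change of -0.65. Of the 343 that name another protein 36 were higher (10.5%) and 107 lower (31.2%), with a median of -0.29. Over all features 24.9% were higher and 26.2% lower, and of the 11415 ENSRNOG genes that name another protein 29.7% and 26.9%. The lower share of these 343 loci was thus near the background and the higher share below it. Zinc finger loci numbered 2 higher and 29 lower of 50 (median -0.86), beside 157 higher and 206 lower of 710 ENSRNOG zinc finger genes (median -0.11). Ribosomal protein loci went the other way, with 6 higher and 1 lower of 12 (median 0.69), beside 228 higher and 10 lower of 306 ENSRNOG ribosomal protein genes (median 0.72). With counts scaled to library totals alone, the zinc finger loci had 4 higher and 23 lower and the ribosomal protein loci 8 higher and 1 lower. These counts are descriptions and the classes share families of near-identical copies.

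Of the zinc finger loci, 16 name a protein like Znf431, a Krüppel-associated box repressor, and of these 1 was higher and 5 lower on day 7 (beside 24.9% and 26.2% of all features), with a median of -0.57 and a range from -3.50 to 0.51. NewGene_6235, whose text names Zfp54, had 74.0 CPM in PCL-O, 62.0 in PCL-E, 33.2 for PCL-S and 33.8 for PCL-SE on day 3, and 114, 135, 11.8 and 15.3 on day 7. The groups did not overlap on either day and the gap was wider on day 7 (-3.42, SE 0.16, adjusted p = 8.66e-05 in edgeR) than on day 3 (-1.01, SE 0.14, adjusted p = 0.00674). This locus, NewGene_717 and NewGene_1943 were chosen after their values were seen. NewGene_717, with the text of Znf469 (a zinc finger protein linked to collagen of the cornea), had 175 and 141 CPM without S7 and 106 and 98.9 with it on day 7. NewGene_1943, whose Swiss-Prot line names Sp3, stood at 7.01 to 13.4 CPM in 7 libraries and at 0.0607 CPM in PCL-S on day 7.

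The retroelement loci did not move together. On day 7, 2 of 22 were higher and 7 lower (31.8%, beside 26.2% of all features and 6 of 34 ENSRNOG retroelement genes), with a median of -0.43, and with the length trend removed 4 were higher and 5 lower. On day 3, 3 were higher and 1 lower. Apart from NewGene_4419 and NewGene_2419, NewGene_5406 carries the text of Rtl5, a gene derived from a retrotransposon Gag sequence. It had 14.4 CPM in PCL-O, 18.0 in PCL-E, 24.0 for PCL-S and 25.8 for PCL-SE on day 3, and 28.6, 42.4, 24.3 and 26.7 on day 7. The arms with S7 were higher on day 3 (0.65, SE 0.12, adjusted p = 0.015 in edgeR) and lower on day 7 (-0.68, SE 0.12, adjusted p = 0.00317).

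A gene symbol could be taken from the text of 363 loci. For 85 of these, with 64 symbols among them, the symbol was not found in any name or annotation line of an ENSRNOG gene. Such a symbol was therefore carried by new loci only, and some symbols by several of them. In edgeR's test 9 of the 85 were higher and 8 lower with S7 on day 3, and 10 were higher and 41 lower on day 7. Their day 7 median was -0.43, or -0.10 with the length trend removed. The median of all features was -0.03 and 0.16 in the same order. Of all features, 7.10% were higher and 6.87% lower on day 3, and 24.9% and 26.2% on day 7. The members named next were chosen from these 85 after their values were seen.

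NewGene_103 carries the text of Sox4, a transcription factor of progenitor cells. It had 101 CPM in PCL-O, 99.9 in PCL-E, 58.1 for PCL-S and 56.2 for PCL-SE on day 3, and 88.5, 99.6, 57.7 and 60.3 on day 7. NewGene_5559 carries that of Slitrk4, a transmembrane protein of synapses, and had 106, 84.6, 32.9 and 33.3 CPM on day 3 and 95.4, 95.9, 34.4 and 37.9 on day 7. Both were lower with S7 on both days by like amounts. The log2 difference of NewGene_103 was -0.79 on day 3 and -0.90 on day 7 (SE 0.08 for each, adjusted p = 0.00204 and 0.000287 in edgeR), and that of NewGene_5559 was -1.50 and -1.63 (SE 0.12, adjusted p = 0.00134 and 0.000199).

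The text of Top2b, a DNA topoisomerase, was carried by 4 loci. On day 7 the largest of these, NewGene_7433, had 76.4 CPM in PCL-O, 73.6 in PCL-E, 40.7 for PCL-S and 40.8 for PCL-SE, whereas on day 3 the 4 arms had 74.9, 73.6, 65.7 and 64.6. All 4 loci were lower with S7 on day 7, by -1.08 to -1.32, and none passed on day 3. Nesprin-2 (Syne2), a protein of the nuclear envelope, was named by 4 loci with values of -0.94 to -1.66 on day 7; all 4 passed, and 2 of 4 did with the length trend removed. Nesprin-1 (Syne1) was named by NewGene_5788, which had 212 and 184 CPM without S7 and 122 and 128 with it on day 7 (-0.88, SE 0.11, adjusted p = 0.000943). Arid5b, a chromatin regulator, was named by NewGene_1653, with 185 and 124 CPM against 109 and 101 (-0.77, SE 0.17, adjusted p = 0.0087). A rise was found for NewGene_4894, with the text of the Toll-like receptor adaptor Ticam1 (18.4 and 24.6 CPM against 40.1 and 37.7; 0.63, SE 0.13, adjusted p = 0.00591).

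For 195 loci the symbol in the text is also the name of a single ENSRNOG gene that was tested (179 genes in all). The locus had the lower mean FPKM in 171 of these pairs, with medians of 3.29 for the loci and 13.5 for the genes. On day 7, 149 of 195 pairs had the same sign of change with S7. The Pearson correlation of the fold changes across the 195 pairs was 0.43 and the Spearman correlation 0.57, given as a description since loci and genes come from the same 8 libraries and pairs can share a gene. In edgeR's test the locus was called in 66 of the 195 pairs and the gene in 100, beside 51.0% of all features and 48.9% of the 1274 loci. Locus and gene were both called in 49 pairs, in one direction in 43 and in opposite directions in 6. In another 17 pairs only the locus was called and in 51 only the gene.

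Among the pairs in opposite directions on day 7 were loci naming Racgap1, Thumpd3, Trim3, Shmt1 and Gapdh. For NewGene_7323 and Shmt1 both days were opposite: the locus was at 1.96 on day 3 and -3.13 on day 7 and the gene at -0.77 and 0.58 (edgeR adjusted p of 0.00949 and 0.000674 for the locus and 0.0268 and 0.0230 for the gene). The locus had 1.19, 1.53, 5.59 and 4.99 CPM in PCL-O, PCL-E, PCL-S and PCL-SE on day 3 and 3.70, 2.97, 0.607 and 0.293 on day 7, against a mean of 17.8 CPM for the gene. On day 3 the pair of NewGene_6939 and Rabgap1, a Rab GTPase-activating protein, was also opposite, at 0.96 for the locus and -0.35 for the gene. The pairs named here were chosen after their values were seen. NewGene_898 (Rpl37) differed from its gene in level: the locus had a mean of 150 FPKM and the ENSRNOG gene of that name 0.568.

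**Figure D5:**
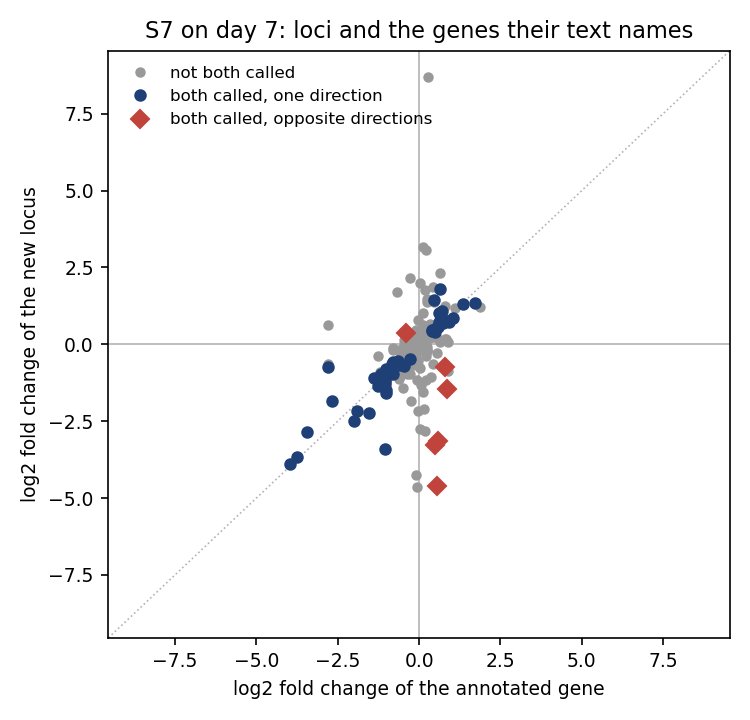
Log2 fold change with S7 against without S7 on day 7 for 195 new loci (vertical axis) and the ENSRNOG gene whose name their text gives (horizontal axis); the dotted line marks equal change. Dark circles are the 43 pairs called in one direction and red diamonds the 6 called in opposite directions, most of which have the locus below and the gene above 0.

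From day 3 to day 7 without S7, 2 loci rose and 6 fell in edgeR's test, beside 0.671% and 0.935% of all features. The number of loci called, 8 in all beside 1.61% of all features, was 0 without PCL-O day 3 and without PCL-E day 3, 35 without PCL-E day 7, 92 without PCL-O day 7, 3 without PCL-S or PCL-SE day 7 and 5 without PCL-S or PCL-SE day 3. It was also 17 with the length trend removed, 18 without the E7 term, 19 without a filter on low counts, 13 with total-count scaling (7 higher and 6 lower, so that lower calls were no longer the majority) and 47 in DESeq2. Each of the loci named next was called in the fit of all 8 libraries and lost that call without PCL-O day 3 and without PCL-E day 3.

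NewGene_6031, of 10974 nucleotides and without text, fell in all arms. It had 15.4 CPM in PCL-O, 13.4 in PCL-E, 12.8 for PCL-S and 12.5 for PCL-SE on day 3 and 0.759, 0.742, 0.303 and 1.04 on day 7. The day 3 and day 7 libraries did not overlap. The log2 change was -4.33 without S7 (SE 0.40, adjusted p = 0.0132 in edgeR, and 0.109 and 0.0973 without PCL-O or PCL-E day 3) and -4.53 with S7 (SE 0.41, adjusted p = 0.000323). NewGene_1756, with the text of Bves, a cell adhesion protein of heart and muscle, had 73.9, 67.5, 36.2 and 36.2 CPM on day 3 and 40.4, 36.0, 15.02 and 12.3 on day 7. It was lower on day 7 in each arm and lower with S7 on each day, and without S7 the change was -0.95 (SE 0.09, adjusted p = 0.0136, and 0.127 and 0.141 without PCL-O or PCL-E day 3).

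NewGene_5406 (Rtl5) rose without S7 by 1.05 (SE 0.12, adjusted p = 0.0167, and 0.155 without PCL-O or PCL-E day 3). NewGene_4944, whose NR line names fibrocystin, a protein of primary cilia, rose from 0.579 and 0.663 CPM to 2.18 and 5.27 (2.44, SE 0.35, adjusted p = 0.029). NewGene_6025 (Ksr1, a scaffold of the MAP kinase cascade) fell by 0.88 on the log2 scale (adjusted p = 0.0489) and NewGene_4020, without text, by 1.52 (0.0476). Leaving out any 1 library but PCL-O day 7 ended the call of NewGene_6025, with adjusted p of 0.0778 to 0.277, as did total-count scaling (0.0550). The same 7 repeats ended the call of NewGene_4020 (0.0803 to 0.377), and 6 of them, all but that without PCL-E day 7, ended that of NewGene_4944 (0.0600 to 0.272). NewGene_5406 also lost its call without PCL-S or PCL-SE day 7 (0.0503 and 0.0501).

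With S7, 104 loci rose from day 3 to day 7 and 476 fell, where 24.4% of all features rose and 26.4% fell. Of the 476, 29 had reached 1 CPM only in libraries without S7 and 11 only in libraries with it. The 104 and 476 are 8.16% and 37.4% of the loci, and the medians were -0.46 for the loci and -0.03 for all features. With total-count scaling 205 rose and 359 fell, and the median of all features moved to 0.28. The number called was 348 without PCL-SE day 3, 390 without PCL-S day 3 and 385 without PCL-S day 7, in place of 580 (beside 50.7% of all features). This comparison shares the day 7 libraries with S7 with the comparison of arms on day 7.

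Among the falls with S7, NewGene_1670 (St8sia2) went from 26.5 and 26.0 CPM on day 3 (PCL-S, PCL-SE) to 1.06 and 1.28 on day 7 (-4.78, SE 0.27, adjusted p = 0.000113 in edgeR). NewGene_5165 (type VI collagen) went from 631 and 579 CPM to 46.7 and 57.0 (-3.85, SE 0.45, adjusted p = 0.000738). NewGene_6679 (Mlxipl) had 0 counts in both day 7 libraries, at least 53.3-fold below its day 3 mean of 4.56 CPM, with adjusted p of 0.00277 in edgeR and 0.0650 in DESeq2. Of the loci without text, NewGene_4598 went from 10.6 and 12.3 CPM to 0.212 and 0.133. NewGene_2923 went from 304 counts over both libraries to 2, a ratio of 143 with a 95% counting interval of 39.2 to 1184, and its call was lost without PCL-S day 7 (adjusted p = 0.0540).

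Among the rises with S7, NewGene_4810, whose text names Tma7, a factor linked to ribosomes, went from 0.586 and 0.499 CPM to 5.34 and 13.4 (3.69, SE 0.86, adjusted p = 0.0111 in edgeR). Its levels without S7 ranged from 2.52 to 9.25 CPM on the 2 days, and the call was lost without PCL-S day 3 or either PCL-SE library (adjusted p of 0.0514 for the first and 0.0946 and 0.0669 for PCL-SE on day 3 and day 7). NewGene_4338, with the text of Cacna1i, a T-type calcium channel subunit, went from 2.001 and 1.64 CPM to 8.38 and 7.41 (1.80, SE 0.27, adjusted p = 0.00184). NewGene_7728 (Smim4, a small membrane protein) went from 3.46 and 3.38 to 14.0 and 13.1 (1.68, SE 0.18, adjusted p = 0.000507). NewGene_7779 (Eloc, elongin C) passed at 1.64 and failed without any 1 of the 4 libraries with S7 (adjusted p of 0.0510 to 0.203) and with the length trend removed (0.0582). NewGene_7559, without text, went from 0.512 and 0.352 CPM to 3.61 and 2.99. NewGene_7910 also rose (4.19, SE 1.03, adjusted p = 0.0137), and its call was lost without PCL-S day 3, PCL-SE day 3 or PCL-SE day 7 (0.0835, 0.101 and 0.0874).

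The loci called on both days with S7 were mostly lower on both. Of the 86 loci lower on day 3, 76 were lower on day 7 as well, which is 88.4% of the day 3 list and 15.02% of the day 7 list. For all features the like shares were 71.2% and 18.7%. Of the 61 loci higher on day 3, 24 were higher on day 7 (39.3% of the day 3 list and 20.5% of the day 7 list, beside 44.2% and 12.6% for all features). The rule bears on these shares. Of the 86 and 506 lower loci, 27 and 76 had reached 1 CPM only in libraries without S7. Of the 61 and 117 higher loci, 12 and 14 had reached it only in libraries with S7. Such loci lay under 1 CPM in every library of the other group on both days, so part of each overlap comes with the rule. A further 14 loci were higher on day 3 and lower on day 7, and 2 were lower on day 3 and higher on day 7. The like shares over all features were not computed. On day 7 the loci were called lower more often than all features (39.7% against 26.2%), so these counts are a description only. The 2 comparisons share no library, but both come from 1 fit of all 8 libraries. That fit has a common E7 term and 1 estimate of the spread per feature, so the 2 sets of calls are not independent.

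The change of the S7 difference between the days was itself tested as an interaction. It was negative for 285 loci (22.4%) and positive for 51 (4.003%), where the test called 15.5% of all features lower and 13.2% higher, and the medians were -0.40 for the loci and -0.03 for all features. Of the 285, 18 had reached 1 CPM only in libraries without S7 and 2 only in libraries with it, and of the 51, 1 and 3. With total-count scaling 101 were positive and 240 negative, and the median of all features moved to 0.21. The number called was 153 without PCL-O day 3, 160 without PCL-SE day 3, 174 without PCL-S day 3 and 195 without PCL-E day 3 or PCL-S day 7, in place of 336 (beside 28.7% of all features). NewGene_5165 had an interaction of -6.18 (SE 0.63, adjusted p = 0.00205 in edgeR) and NewGene_3814 one of -4.56 (SE 0.15, adjusted p = 0.000255).

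E7 made no difference that passed. Across PCL-E and PCL-SE against PCL-O and PCL-S over both days, 0 of 1274 loci were called in edgeR and 0 in DESeq2, as were 0.00% of all features in edgeR; 60 of the 1274 loci and 589 of all 15942 features had an unadjusted p under 0.05. The smallest p among the loci were those of NewGene_1788, NewGene_3814 and NewGene_372, each with an adjusted p of 0.895. NewGene_1788, whose text names Wdr5, a subunit of histone methyltransferase complexes, had 4.75, 4.68, 3.98 and 7.53 CPM in the 4 libraries without E7 and 6.43, 7.87, 7.88 and 11.3 in those with it. The groups overlapped, and the fitted difference was 0.65 (SE 0.12).

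Single arms could be set side by side within a day as ratios of TMM-scaled CPM with 2 added, with no replicate and no test. On day 7, 200 loci (15.7%) were at least 2-fold lower and 46 (3.61%) at least 2-fold higher in PCL-S than in PCL-O, where 8.31% of all tested features were lower and 5.28% higher. For PCL-SE against PCL-O the counts were 190 (14.9%) and 38 (2.98%), beside 7.82% and 4.79% of all features. For PCL-E against PCL-O they were 31 (2.43%) and 9 (0.706%), beside 0.878% and 0.715%. PCL-SE and PCL-S lay close together, with 6 loci lower (0.471%) and 9 higher (0.706%), beside 0.138% and 0.188% of all features. On day 3, 48 loci (3.77%) were lower and 25 (1.96%) higher in PCL-S than in PCL-O, beside 2.50% and 2.08% of all features. In the same order, the counts for PCL-SE against PCL-O were 52 (4.08%) and 26 (2.04%), beside 2.46% and 2.12%. For PCL-E against PCL-O they were 8 (0.628%) and 6 (0.471%), beside 0.226% and 0.144%. For PCL-SE against PCL-S they were 7 (0.549%) and 3 (0.235%), beside 0.119% and 0.0878%. The comparisons with PCL-O share its library.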

How the data were processed

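One table of the whole series was used, with 1 column of counts and 1 of FPKM per library. The deposited counts are whole numbers of reads per feature and library, per the file headers. The authors' FPKM values are scaled per kilobase and per 1000000 fragments, per the file headers, and served here for levels per length and to derive feature lengths. The submitters' processing notes name mm10; assembler, aligner, counting tool and strand setting were not given in the sources used here. Dropping 10 broken lines of text left 26873 features. The labels mention 3 RNA samples, the table has 1 library per arm and day, and pooling is not described.

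CPM are counts per 1000000 of the library total. In edgeR 4.0.16 (R 4.3.3), filterByExpr kept 15942 features, TMM factors scaled them, and quasi-likelihood F-tests used terms for S7, day, S7 by day and E7, which leaves 3 residual degrees of freedom (square root of the common dispersion 0.137). All 1274 loci were tested. Adjusted p (Benjamini-Hochberg) runs over all 15942 features and counts as a call under 0.05. The SE after a fold change is its absolute value divided by the square root of the F statistic. It is an approximation and is unreliable for loci near 0 counts. The fit was checked on simulated data.

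The loci named are the 10 most abundant and, for each test, up to 5 rises and 5 falls among called loci with a named protein and up to 2 each among those without text, with non-overlapping groups (not asked of the interaction) and a mean of at least 2 CPM in the higher group, or the 3 smallest p where none was called, besides those at the edge of the rule. Exceptions are stated where they occur. The values of 1 locus and gene pair are not reported here. The loci, lists and tests were chosen with earlier results of these data known. Alternatives were DESeq2 1.42.0, its size factors in edgeR, total-count scaling, no low-count filter, no E7 term and leaving out each library; removal of a length trend was added after seeing the data. Tables and figures used Python 3.11.15, pandas 2.3.3 and matplotlib 3.10.9.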

Additional observations from a re-analysis of the deposited data

Results flagged for a closer look

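The difference between arms with and without S7 changed between day 3 and day 7 (edgeR's interaction test) for 285 loci in the negative direction and for 51 in the positive direction. Among loci whose text names a protein, the interaction was -6.90 for NewGene_4419 (retroviral Env), -6.18 for NewGene_5165 (type VI collagen), -5.09 for NewGene_7323 (Shmt1), -4.25 for NewGene_1670 (St8sia2) and -3.86 for NewGene_2202 (Macrod2) on the log2 scale.

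Positive interactions were 4.94 for NewGene_2335 (Rbm33), 2.80 for NewGene_2451 (Kcnd2), 1.56 for NewGene_2419 (Peg10), 1.51 for NewGene_7728 (Smim4) and 1.39 for NewGene_4338 (Cacna1i). NewGene_2451 lost the call without any 1 library but PCL-E day 7 (adjusted p of 0.0543 to 0.218) and without the E7 term (0.0665). NewGene_4338 lost it in the same 7 repeats (0.0512 to 0.133). NewGene_2335 lost it without PCL-O day 3 (0.0554) and had a value of 9.71 without PCL-SE day 3. NewGene_2419 lost it without PCL-O day 3 (0.0608) or PCL-SE day 3 (0.0554).

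Among loci without text, NewGene_2138 and NewGene_3594 had 0 counts in both day 7 libraries with S7, so their fitted interactions of -9.35 and -9.13 depend on the prior count and are no bound. The interaction was 8.39 for NewGene_7910, where the call was lost without PCL-O day 3 (4.88, adjusted p = 0.0921), PCL-S day 3 (0.0592), PCL-SE day 3 (0.0594) or PCL-SE day 7 (0.0521), and 3.07 for NewGene_7234, which like the Rn18s loci was highest in the day 7 libraries with S7 (19.5 and 43.1 CPM without S7 and 267 and 180 with it on day 7). NewGene_7234 lost its call without PCL-S day 3 (0.0606).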

How the results depend on the processing

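No named called result changed sign under an alternative. For day without S7 the balance of calls turned with total-count scaling, from 2 higher and 6 lower to 7 higher and 6 lower. No paired analysis was possible because each arm and day has 1 library and the labels carry no replicate numbers. With total-count scaling the loci called higher numbered 182 for S7 on day 7, 205 for day with S7 and 101 for the interaction, and with the length trend removed the last was 86. For day without S7, higher and lower were 16 and 31 in DESeq2, 5 and 12 with the length trend removed, 6 and 13 with no low-count filter and 6 and 12 without the E7 term. The causes were not tested. Requiring 1 CPM in all 8 libraries left 700 loci.

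Leaving out 1 library at a time gave, for loci higher and lower, 10 to 106 and 15 to 153 for S7 on day 3, 54 to 128 and 352 to 502 for S7 on day 7, 0 to 20 and 0 to 72 for day without S7, 45 to 141 and 303 to 518 for day with S7, 19 to 91 and 134 to 347 for the interaction, and 0 to 0 for E7. The median of the loci relative to all features then ran from -0.12 to -0.08, -0.54 to -0.43, -0.13 to -0.02, -0.45 to -0.40, -0.44 to -0.32 and -0.07 to -0.02 in the same order. Of 868 repeats of the 62 called results named here, 100 lost the call, 93 of them without 1 library, and 0 changed sign.

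With 0.5 added to CPM in place of 2, loci 2-fold higher and lower on day 3 numbered 59 and 120 (PCL-S against PCL-O), 19 and 19 (PCL-E against PCL-O), 58 and 115 (PCL-SE against PCL-O) and 13 and 18 (PCL-SE against PCL-S). On day 7 they numbered 88 and 382, 29 and 64, 78 and 384, and 23 and 21. Adding less widens ratios of low counts by construction. At 3 counts per library, levels under 0.0718 to 0.0911 CPM could not be told from 0.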
